A study of Mus musculus with 8 samples.

Results

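Genes that modify, fold and export collagen were examined in skeletal cells sorted from mouse fracture callus. The group was chosen by gene symbol and holds 35 genes: prolyl and lysyl hydroxylases, lysyl oxidases, collagen chaperones, procollagen proteinases and the machinery that carries procollagen out of the endoplasmic reticulum (ER). Of these, 33 had a probe set annotated to that gene alone, with 55 probe sets between them, out of 18193 genes and 45037 probe sets. The probe sets of Loxl2 carry a second gene name and were not used, and Fkbp10 was not analysed here. Affymetrix arrays covered SSCs, the skeletal stem cells (4 arrays), and BCSPs, the bone, cartilage and stroma progenitors that arise from them (4 arrays). Both came from male C57/Bl6 mice aged 10 to 12 weeks, whose femurs were broken through both cortices and held with a pin in the marrow cavity. Callus was taken on day 7 by the sample labels, whereas the study's methods give a later day. Both were sorted as CD51+ cells that lacked the blood and vessel markers CD45, Ter119 and Tie2 and the surface proteins 6C3 and Thy1. SSCs were the CD105- cells among them that carried CD200, and BCSPs were the CD105+ cells. About 10000 cells of each were sorted without culture, and each of 4 experiments gave 1 array of either population.

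Collagen chains enter the ER as procollagen and are changed there before they fold. Prolyl 4-hydroxylation holds the triple helix together at body temperature, lysyl hydroxylation makes the sites for sugars and cross-links, and chaperones bind the folded helix. Large COPII coats then carry procollagen to the Golgi, proteinases remove its propeptides outside the cell, and lysyl oxidases cross-link the fibres. Cartilage and bone cells secrete much collagen, and in people inherited faults in many of these genes cause brittle bone disease or other skeletal disease.

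Expression was given as an activity score for each probe set. The score runs from about -100 (inactive) to 100 (active) and places a probe set within the range it shows over many public arrays, with 0 as its threshold. It levels off at both ends, it is not a log value, and it does not rank the mRNA amounts of different genes. Differences are therefore in points of the score. For a gene with several probe sets the one with the top mean over the 8 arrays was used, which favours high scores, and the other probe sets are described further on. Arrays measured sorted pools, in which fewer cells of a kind and less RNA per cell cannot be told apart. The number of arrays limits the precision.

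The sorted cells carried the marker genes of their gates in part. Itgav (CD51) and Cd200 were active on all 8 arrays. Ptprc, Tek, Thy1 and Enpep, which encode markers the gate excluded, scored below 0 on each of them. Eng (CD105) scored higher on every BCSP array than on any SSC array. The scores of Cd200, which encodes the marker that SSCs were sorted for, overlapped between the populations. The skeletal genes Sox9, Prrx1, Pdgfra, Sp7 and Acan were active on all 8 arrays. Of 42 measured marker genes of 8 other cell types, 37 were below 0 on every array and 2, Ctsk and Cspg4, were active on all 8. The erythroid gene Hba-a1 was above 0 on 5 arrays (up to 90.5). The macrophage gene Laptm5 was above 0 on 3 (up to 73.9) and the lymphocyte gene Ighm on 1 (59.6). Among all 18193 genes, 0 differed between the populations at an adjusted p under 0.05 (limma). An unadjusted p under 0.05 was reached by 465 (2.56%), which is fewer than chance alone would give at that threshold.

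Nearly the whole collagen pathway was active in both populations. Of the 33 measured genes, 28 (84.8%) scored above 0 on all 8 arrays, against 25.0% of all genes. A score of at least 90 on every array was reached by 18 of them (54.5%), against 2.71% of all genes. The median over the 33 genes was 98.3 in SSCs and 97.2 in BCSPs, while the median over all genes was -18.7 and -17.3. On single arrays the median of the collagen genes lay between 94.5 and 99.1. Below the threshold on every array were 2 genes, Tll1 and Tmem38b, against 43.5% of all genes, and Loxl1, Tll2 and Creb3l1 were above it on some.

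**Figure D1:**
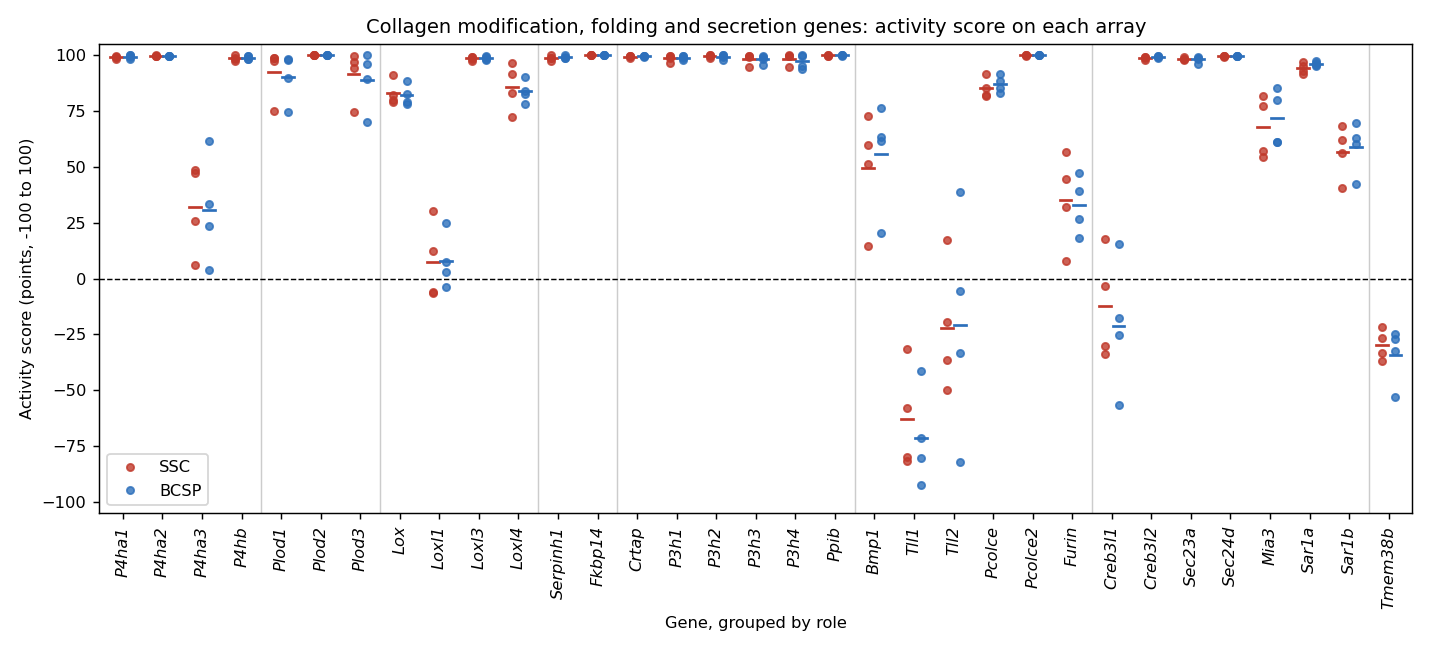
Activity score of the 33 measured collagen modification, folding and secretion genes on 4 SSC and 4 BCSP arrays (vertical axis, points). Each point is an array, short bars are group means, grey lines part the roles and the dashed line is the threshold of 0; 28 genes lie above 0 on all 8 arrays, and Tll1 and Tmem38b on none.

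All 4 prolyl 4-hydroxylase genes were active on all 8 arrays. P4ha1 and P4ha2 encode catalytic alpha subunits and P4hb the shared beta subunit, protein disulfide isomerase. P4ha2 scored between 99.6 and 99.96, P4ha1 between 98.1 and 99.95, and P4hb between 97.3 and 99.95. A second P4ha1 probe set scored lower, between 33.6 and 78.1. The third alpha subunit, P4ha3, was lower and more scattered. It scored 48.5, 47.4, 25.8 and 5.92 on the SSC arrays of experiments 1 to 4. On the BCSP arrays it scored 4.05, 61.8, 23.4 and 33.4. The populations overlapped, and the highest and the lowest value were both from BCSPs.

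The lysyl hydroxylases were also active throughout. Plod2, which hydroxylates the telopeptides where cross-links form, scored 100 on every array by the probe set used and at least 99.85 by the other. Plod1 acts on the helix, and Plod3 adds sugars as well as hydroxyl groups. Plod3 scored 94.3, 97.1, 74.5 and 99.5 in SSCs of experiments 1 to 4. In BCSPs it scored 96.2, 99.8, 69.9 and 89.2. Both populations had their lowest Plod3 value in experiment 3.

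Lysyl oxidases oxidise lysines of secreted collagen and elastin. Of the 4 measured genes, 3 were active on all 8 arrays. Loxl3 scored between 97.6 and 99.7, Loxl4 between 72.5 and 96.5, and Lox between 78.2 and 90.95. Loxl1, which is best known for its work on elastic fibres, lay around the threshold. Its SSC arrays of experiments 1 to 4 scored 30.2, 12.2, -5.83 and -6.26. Its BCSP arrays scored 25.0, 7.49, 2.82 and -3.72. The second Loxl1 probe set was below 0 on all 8 arrays.

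The chaperones and the prolyl 3-hydroxylase genes were uniformly high by the probe sets used. Serpinh1 encodes Hsp47, which binds the procollagen triple helix, and scored between 97.4 and 99.9. Fkbp14, a prolyl isomerase of the ER, scored at least 99.98 on every array by the probe set used. Its second probe set scored between -67.9 and 73.4. Crtap, P3h1 and Ppib encode the complex that 3-hydroxylates specific prolines in fibrillar collagens. Crtap scored between 98.6 and 99.7, P3h1 between 96.7 and 99.7, and Ppib (cyclophilin B) between 99.8 and 99.96. P3h2, a further prolyl 3-hydroxylase, scored between 97.9 and 99.97. P3h3 and P3h4 take part in lysyl hydroxylation together with Plod1. P3h3 scored between 94.8 and 99.7 and P3h4 between 94.0 and 99.85. All 6 genes of this set were active on all 8 arrays.

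The genes of procollagen processing were the most mixed, with 4 of 6 active on all 8 arrays. Pcolce2, an enhancer of the C-propeptide cleavage, scored at least 99.8 on every array. Pcolce, its relative, scored between 81.6 and 91.6. Bmp1, which encodes the main procollagen C-proteinase, scored 51.3, 59.7, 14.8 and 72.8 in SSCs of experiments 1 to 4. In BCSPs it scored 76.3, 63.5, 20.6 and 61.7. By this probe set both Bmp1 values of experiment 3 lay below those of all other arrays. The other Bmp1 probe sets were above 0 on 5 arrays and on 1 array. Furin, a protease that activates the Bmp1 precursor, scored between 8.06 and 56.9.

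The Bmp1 relatives Tll1 and Tll2 scored low. Tll1 scored -31.3, -81.6, -80.1 and -58.0 in SSCs and -92.3, -71.4, -80.4 and -41.6 in BCSPs. Genes known from tissues such as retina or liver gave a silent reference, and the 95th percentile over its 45 probe sets ranged from -24.0 to -9.68 by array. Tll1 lay below that percentile on all 8 arrays. Tll2 scored -49.8, 17.2, -36.5 and -19.5 in SSCs and -82.1, 38.7, -33.2 and -5.75 in BCSPs. It was thus above 0 only on the SSC and the BCSP array of experiment 2, and it exceeded the silent percentile on 3 arrays.

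Of the genes of ER export and its regulators, 6 of 7 were active on all 8 arrays. Sec23a and Sec24d encode subunits of the inner COPII coat, and scored between 96.1 and 99.4 and between 99.4 and 99.8. Sar1a and Sar1b encode the GTPases that start coat assembly. Sar1a scored between 91.5 and 97.2 and Sar1b between 40.5 and 69.8. Mia3 encodes TANGO1, the ER exit site receptor that recruits procollagen, and scored between 54.4 and 85.4. Creb3l2 (BBF2H7) is a membrane-bound transcription factor that activates Sec23a in mouse chondrocytes, and scored between 97.7 and 99.6.

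Creb3l1 (OASIS), the related factor that acts on type I collagen in mouse osteoblasts, was the exception. It scored -30.0, -3.12, -33.8 and 17.9 in SSCs of experiments 1 to 4. In BCSPs it scored -17.6, -56.5, -25.5 and 15.3. Only the arrays of experiment 4 were above 0, in both populations. Tmem38b, which encodes the TRIC-B potassium channel of the ER membrane, scored between -37.0 and -21.5 in SSCs and between -52.8 and -24.8 in BCSPs. It lay below the silent percentile on all 8 arrays, and its other 3 probe sets were below 0 on all of them.

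Promoter windows were available for 24 of the 33 genes in RefSeq (mouse build GRCm38.p6, 250 bases before to 50 after a start site, 27 windows). They were searched on both strands for ACGTG, the core shared by hypoxia and ER stress elements, and for TGACG, the core of cyclic AMP response elements that factors of the Creb3l family also bind. ACGTG occurred in 13 of the 27 windows (48.1%), against 22.9% of 18109 windows of the genes on the array. TGACG occurred in 9 (33.3%), against 26.5%. The cores overlap in TGACGTG, which occurred in 4 windows (14.8%), those of Furin, Mia3, Sec23a and Sec24d, against 2.52%. CCAAT was searched too and occurred in 13 windows (48.1%), against 37.4%. The full ER stress element, CCAAT and CCACG with 9 bases between, occurred in 0 windows, against 0.110%. The median GC content was 63.7% in the windows of the collagen genes and 58.3% in those of the array's genes, and its part in these shares was not tested. A match describes the letters and does not show a binding site. The windows of the export genes that hold TGACGTG are printed because they include the Creb3l2 target Sec23a, and that of P4ha1 because this gene is a known target of hypoxia. Capitals mark every match of ACGTG or TGACG on either strand.
Sec23a, chr12:59011968-59012267, minus strand: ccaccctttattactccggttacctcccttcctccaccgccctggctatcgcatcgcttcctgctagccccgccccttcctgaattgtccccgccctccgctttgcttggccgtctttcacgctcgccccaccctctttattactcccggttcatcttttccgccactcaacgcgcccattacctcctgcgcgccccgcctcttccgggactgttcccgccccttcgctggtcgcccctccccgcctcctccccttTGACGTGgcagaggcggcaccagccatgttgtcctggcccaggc
Sec24d, chr3:123267246-123267545, plus strand: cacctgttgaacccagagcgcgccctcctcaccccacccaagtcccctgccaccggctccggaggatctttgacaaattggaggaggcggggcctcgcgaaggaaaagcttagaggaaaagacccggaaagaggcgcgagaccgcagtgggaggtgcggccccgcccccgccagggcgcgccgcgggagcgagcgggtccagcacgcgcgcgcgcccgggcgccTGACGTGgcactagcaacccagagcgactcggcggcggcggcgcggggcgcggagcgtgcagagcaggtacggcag
Mia3, chr1:183369516-183369815, minus strand: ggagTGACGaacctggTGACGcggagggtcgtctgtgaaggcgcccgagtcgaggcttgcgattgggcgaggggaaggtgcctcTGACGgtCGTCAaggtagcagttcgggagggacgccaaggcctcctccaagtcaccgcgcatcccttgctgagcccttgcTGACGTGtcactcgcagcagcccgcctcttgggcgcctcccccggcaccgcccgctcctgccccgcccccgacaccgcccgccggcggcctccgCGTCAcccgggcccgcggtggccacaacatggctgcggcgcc
P4ha1, chr10:59323046-59323345, plus strand: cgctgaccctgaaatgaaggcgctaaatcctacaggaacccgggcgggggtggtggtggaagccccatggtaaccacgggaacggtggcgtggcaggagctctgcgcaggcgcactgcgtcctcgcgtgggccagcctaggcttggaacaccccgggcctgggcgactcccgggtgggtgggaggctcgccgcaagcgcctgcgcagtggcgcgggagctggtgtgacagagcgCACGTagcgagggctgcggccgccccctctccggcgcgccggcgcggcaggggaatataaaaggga

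In Sec24d the TGACGTG match lay 26 bases before the start site, in Mia3 86 bases before it, and in Sec23a 7 bases after it. In P4ha1 the only ACGTG lay 16 bases before the start. Each of these genes was active on all 8 arrays. Tll1 and Tll2, the only genes not active on all 8 arrays for which a window was available, had neither core. The windows of Crtap, P3h3, P4ha3, Pcolce, Pcolce2, Plod1 and Sar1b, all active on all 8 arrays, had neither core as well.

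Several genes had probe sets that disagreed. Of the 33 genes, 16 had more than 1 probe set, and in 8 of these every probe set was above 0 on all 8 arrays. Counting a gene only when all its probe sets were above 0 on every array left 22 of 33 (66.7%), against 10.2% of all genes. Plod2, Ppib, P3h1, Creb3l2, Pcolce and Serpinh1 had probe sets whose means lay within 10 points of each other. The gap between the highest and the lowest mean was 109 points for Fkbp14, whose second probe set scored between -67.9 and 73.4. It was 81.4 points for Bmp1 and 51.7 points for Mia3. The third Lox probe set scored between -7.00 and 92.9 and was above 0 on 5 arrays, while the other 2 did not fall under 55.2 on any array. A level read from 1 probe set of these genes therefore does not stand for the others.

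**Figure D2:**
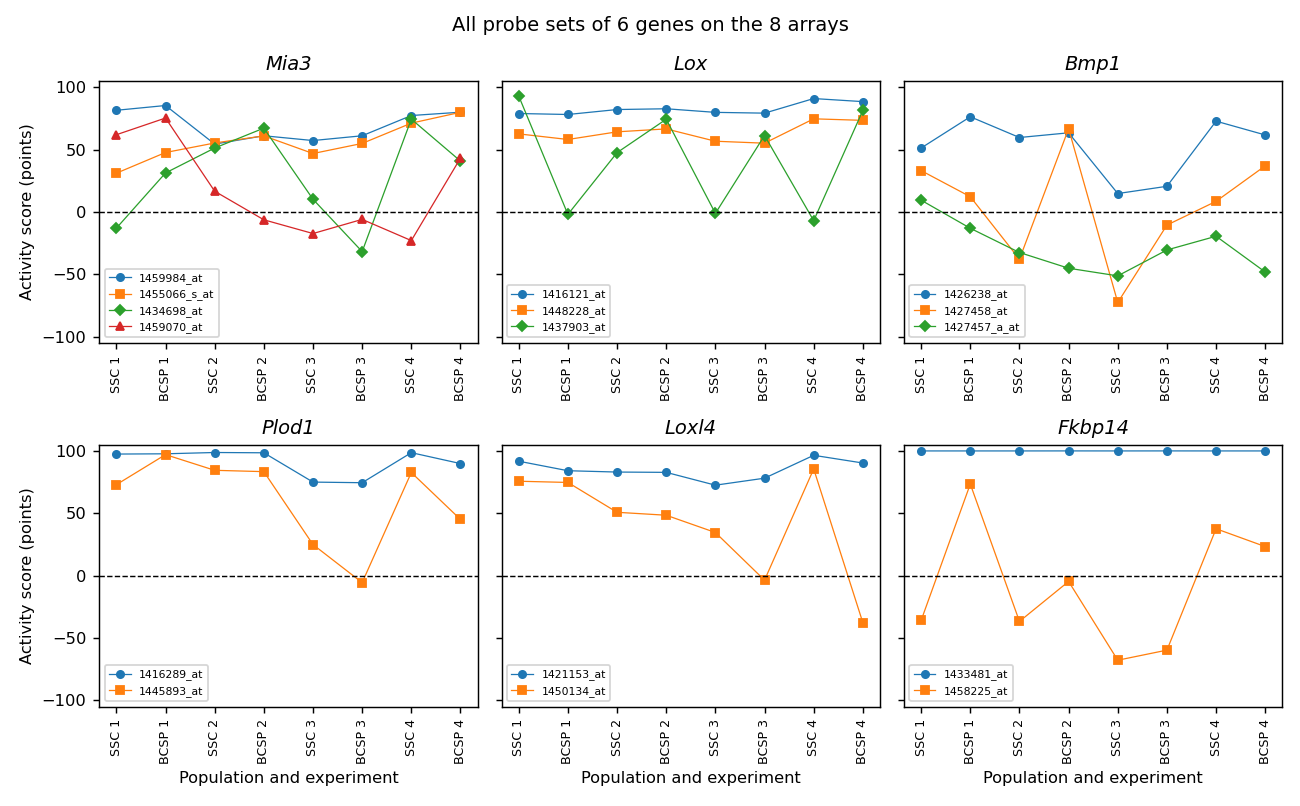
Activity score (vertical axis, points) of every probe set of Mia3, Lox, Bmp1, Plod1, Loxl4 and Fkbp14 on the 8 arrays (horizontal axis, population and experiment). Each line joins 1 probe set and the dashed line is the threshold of 0; the upper Fkbp14 probe set lies at 99.98 or above on every array and the lower one between -67.9 and 73.4.

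No gene of the pathway differed detectably between SSCs and BCSPs. Limma called 0 of the 33 genes in either direction at an adjusted p under 0.05 (0% of all genes), and 0 at an unadjusted p under 0.05 (2.56% of all genes). The SSC and BCSP arrays overlapped for every one of the 33. They did not overlap for 1.34% of all genes (0.544% with SSCs higher and 0.797% with BCSPs higher). With 33 genes, counts of 0 are near these small shares and do not set the collagen genes apart. Differences (SSC minus BCSP) ran from -5.90 points for Bmp1 to 8.84 points for Creb3l1, with a median of -0.0450 over the 33 genes and -0.998 over all genes. They were positive for 14 genes and negative for 18, and Plod2 was at 100 in both populations. With the experiment as a block, limma again called 0 of the 33, also at an unadjusted p under 0.05 (5.22% of all genes).

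The largest moderated statistics were those of Sar1a, Pcolce, Tll1 and P3h4. Sar1a scored 96.8, 91.5, 93.1 and 95.1 in SSCs and 96.3, 97.2, 95.5 and 95.1 in BCSPs. The populations overlapped, and the lowest BCSP value equalled that of the SSC array of the same experiment. The means were 94.1 ± 2.31 (SD, n = 4) and 96.0 ± 0.931 (SD, n = 4), a difference of -1.88 points with a 95% confidence interval of -5.53 to 1.77 (limma, adjusted p = 1). Pcolce scored 91.4, 85.4, 81.6 and 82.3 in SSCs and 91.6, 88.2, 85.4 and 82.9 in BCSPs. The BCSP array was higher in each of the 4 experiments, by less than the spread between experiments. The difference was -1.84 points, with an interval of -8.50 to 4.83 (limma, adjusted p = 1). P3h4 scored 99.85, 99.4, 94.5 and 99.7 in SSCs and 99.85, 99.7, 93.96 and 95.3 in BCSPs, with experiment 3 lowest in both. It was 1.18 points higher in SSCs (interval -3.33 to 5.68) and Tll1 8.68 points higher (interval -23.8 to 41.1; limma, adjusted p = 1 for each). With 1 array left out, the difference ran from -2.77 to -1.01 for Sar1a (without the SSC array of experiment 1 and of experiment 2) and from -3.90 to -0.327 for Pcolce (without the SSC and the BCSP array of experiment 1). It ran from 0.0992 to 2.45 for P3h4 (without the BCSP and the SSC array of experiment 3), and that of Tll1 was -1.79 points without the SSC array of experiment 1. Like Pcolce, Creb3l2, Mia3 and Sar1b scored higher in BCSPs in 4 of 4 experiments. That pattern held for 4 of the 33 genes (12.1%) and for 8.03% of all genes, and the opposite one for 0 of the 33 and 4.38% of all genes.

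**Figure D3:**
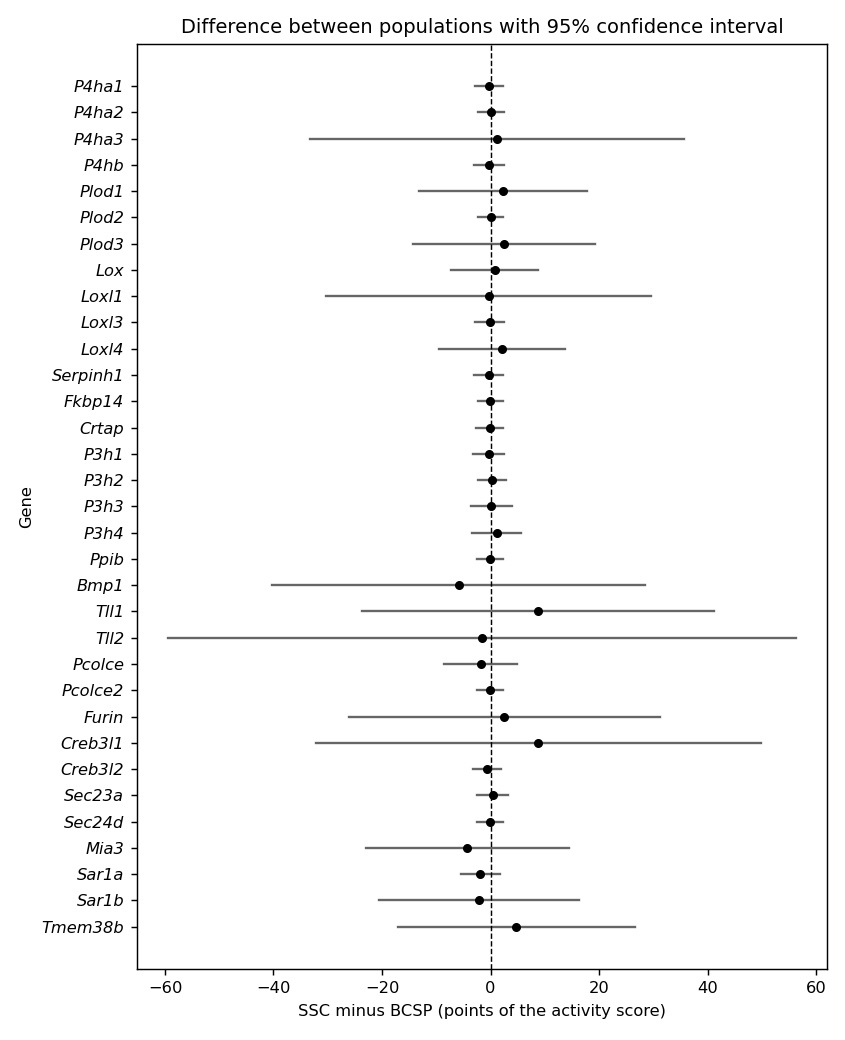
Difference between populations (horizontal axis, SSC minus BCSP in points of the activity score) for the 33 measured genes. Points are differences of means over 4 arrays each and lines are 95% confidence intervals from limma without the experiment as a block. Every interval includes 0, with that of Sar1a from -5.53 to 1.77.

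How far a difference could be seen depended in part on the level. For the genes near the upper limit the intervals were narrow, as for P4ha2 (-2.36 to 2.39 points), Crtap (-2.62 to 2.31) and Sec24d (-2.46 to 2.33), but there the score levels off. For genes in the middle of the scale they were wide, as for P4ha3 (-33.2 to 35.7), Bmp1 (-40.3 to 28.5), Furin (-26.1 to 31.3) and Tll2 (-59.4 to 56.3). The intervals are from the fit without the experiment as a block, so the spread between experiments is also part of their width. The lack of a call therefore does not show that the populations are alike in these genes.

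The arrays of a gene varied with the experiment more than with the population. The mean absolute difference between arrays of different experiments was larger than that between the SSC and the BCSP array of 1 experiment in 29 of 33 genes (87.9%), and in 72.0% of all genes. Among genes active on all 8 arrays it was larger in 24 of 28 collagen genes (85.7%) and in 84.4% of all such genes. The medians over the 33 genes were 2.38 and 1.12 points. A limma F test of the 4 experiments, with the population in the model, called 2 of the 33 genes, Plod1 and Mia3 (adjusted p = 0.0460 for each), or 6.06%, against 1.37% of all genes. At an unadjusted p under 0.05 there were 11 (33.3%), against 26.7% of all genes. Among genes active on all 8 arrays the shares were 2 of 28 (7.14%) against 4.02% by adjusted p. By unadjusted p they were 10 of 28 (35.7%) against 42.9%, so only there the order turned with the background. Both calls were lost without any 1 of the 8 arrays. The 250 genes called in all became 0 to 6 without 1 array, 0 without the trend, 11 on the arctanh scale and 1040 among genes above 0 on at least 4 arrays, so the 1.37% is itself unsteady. Hybridization controls also differed by experiment, with medians of 62.5 and 70.9 in experiment 1, 32.4 and 41.8 in experiment 3 and -24.2 to 3.77 in the others, and their part in these results was not tested.

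Plod1 scored 97.5, 98.7, 74.99 and 98.6 in SSCs of experiments 1 to 4. In BCSPs it scored 97.7, 98.5, 74.5 and 89.8. Experiment 3 lay below the others in both populations. The second Plod1 probe set was also lowest there, at 24.9 in SSCs and -5.62 in BCSPs, against 45.0 to 97.0 on the other arrays. Mia3 scored 81.5, 54.4, 57.3 and 77.3 in SSCs and 85.4, 61.1, 61.1 and 80 in BCSPs. By this probe set experiments 1 and 4 were high and 2 and 3 low. By the second probe set experiment 1 was low, at 31.1 in SSCs and 47.7 in BCSPs, and experiment 4 high, at 71.2 and 79.9. The order of the experiments for Mia3 thus depends on the probe set.

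Experiment 3 stood lowest for other genes of the pathway too, a pattern noticed after the values were seen. Both its arrays scored below all other 6 in 11 of the 33 genes (33.3%), against 16.1% of all genes. These were Plod1, Plod3, Loxl3, Loxl4, Serpinh1, Crtap, P3h1, P3h3, P3h4, Bmp1 and Sar1b. The arrays of experiment 1 were both lowest in 3 genes (8.89% of all genes), those of experiment 2 in 1 (3.91%) and those of experiment 4 in 1 (3.67%). For 6 of the 11 the difference was within the top of the scale, such as Crtap at 98.6 and 99.1 against 99.4 to 99.7. It was large for Bmp1, at 14.8 and 20.6 against 51.3 to 76.3, and for Sar1b, at 40.5 and 42.5 against 56.1 to 69.8. Of the 5 genes among the 11 that had further probe sets, those of Plod1, P3h1 and Serpinh1 were also lowest on both arrays of experiment 3. Those of Bmp1 were not, with -72.6 and -10.5 in experiment 3 against a lowest other value of -37.9, and -51.3 and -30.5 against -48.2. That of Loxl4 was not either, with 34.6 and -3.66 against -37.8. With each array centred on its median there were 5 (15.2%, against 11.1% of all genes), and with quantile normalization 14 (42.4%, against 14.5%). The arrays of experiment 3 also had the lowest medians over all genes, at -25.4 and -21.6 against -17.9 to -11.0. The actin control scored higher at its 3' end than at its 5' end by 59.6 and 64.9 points there, and by 23.1 to 44.2 points elsewhere. The Gapdh control did not set experiment 3 apart. Its 3' excess was 54.7 and 49.1 points there, 53.9 and 71.9 points in experiment 4, and 21.3 to 44.2 points in experiments 1 and 2. The part of RNA quality in these scores was not tested.

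**Figure D4:**
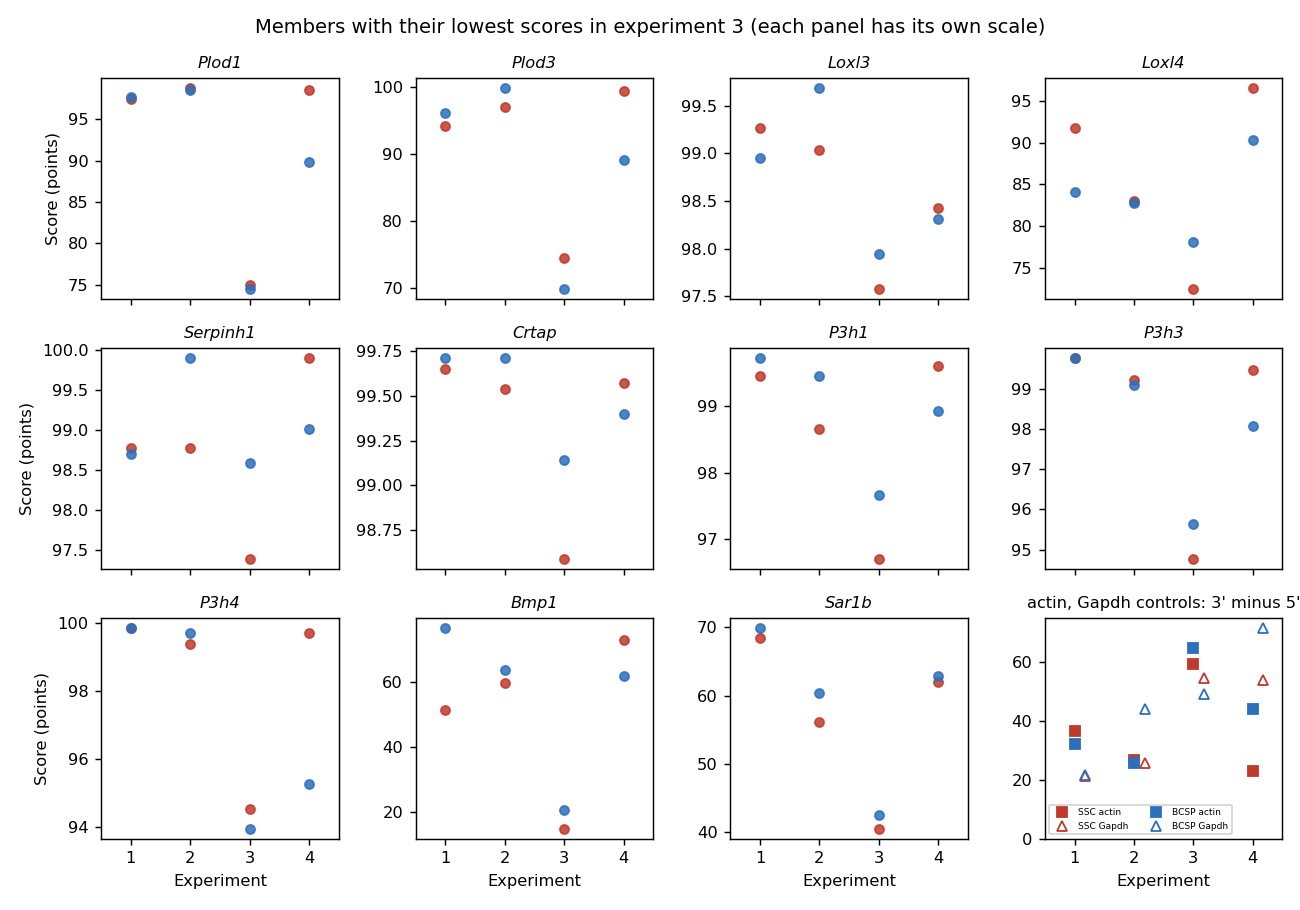
Activity score (vertical axis, points, with its own scale in each panel) by experiment for the 11 genes that scored lowest on both arrays of experiment 3, and, in the last panel, the 3' minus 5' score of the actin (squares) and Gapdh (triangles) controls. Each point is an array, red for SSCs and blue for BCSPs; Bmp1 lies at 14.8 and 20.6 in experiment 3 and at 51.3 to 76.3 elsewhere.

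The substrates and neighbours of the pathway were mostly active as well. Of 10 fibrillar collagen genes, which encode the chains that these enzymes work on, 9 were active on all 8 arrays. Col1a1 scored between 85.9 and 92.7, Col2a1 between 92.0 and 98.3, and Col11a1 between 99.7 and 99.96. Col3a1 scored between 92.2 and 97.3. Col5a3 was the exception. It scored 50.4, 71.1, 61.3 and 63.7 in SSCs of experiments 1 to 4, and 63.0, -0.12, 28.4 and 40.98 in BCSPs. The populations overlapped, since the BCSP array of experiment 1 was high, and the difference of 28.6 points did not pass (interval -0.385 to 57.5; limma, adjusted p = 1). Of 10 other measured genes in a list around collagen modification, 5 were active on all 8 arrays and 4 stayed below 0. Not all of them encode enzymes that act on collagen. Colgalt1 and Colgalt2, which add galactose to hydroxylysine, scored at least 98.2 and 99.4, and Adamts3, which encodes a procollagen N-proteinase, at least 99.3. Slc23a2, a transporter of ascorbate, the cofactor of the hydroxylases, scored between -85.8 and -42.9. P4htm, Mep1a and Mep1b were the others below 0 on every array. Vipas39, which takes part in the traffic of Plod3, scored between 5.71 and 47.5. Vps33b, also in this list, scored between -70.6 and 45.1 and was above 0 on 3 arrays.

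Of 17 other ER folding genes, 12 were active on all 8 arrays and 3 stayed below 0. Pdia3, a disulfide isomerase, scored between 33.6 and 84.0, and Ero1a, which oxidises such isomerases, between 87.8 and 94.8. Hsp90b1 scored between 93.2 and 98.95 and Hspa5 (BiP) between 72.7 and 92.4. The genes below 0 on every array were Ero1b, Sdf2l1 and Hyou1. Of 20 other measured genes of COPII coats and ER exit, 15 were active on all 8 arrays and 1, Mia2, stayed below 0. Trappc3, part of a tethering complex, scored between -83.6 and 0.720. Limma called 0 of these 57 genes of the 4 lists higher in SSCs and 0 higher in BCSPs. Sec24c, another cargo subunit of the coat, was the only one of them at an unadjusted p under 0.05. It scored 49.0, 32.1, 41.2 and 57.9 in SSCs and 66.6, 51.0, 66.1 and 71.3 in BCSPs, and was higher in BCSPs in 4 of 4 experiments, though the populations overlapped. The difference was -18.7 points (standard error 7.50) and did not pass (limma, adjusted p = 1). With the experiment as a block, the unadjusted p of Sec24c was 0.00335 and the adjusted p 0.928 (limma). Sec23b, the paralog of Sec23a, was called between experiments (limma, adjusted p = 0.0460), at 29.8 and 39.7 in experiment 3 against 60.4 to 87.6 in the others. That call too was lost without any 1 array (limma, adjusted p from 0.0716 to 0.235).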

How the data were processed

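RNA of 4 SSC and 4 BCSP pools was amplified in repeated rounds and hybridized to Affymetrix arrays. The authors uploaded the arrays to Gene Expression Commons, where StepMiner finds a threshold per probe set over reference arrays, and deposited the activity score of 45101 probe sets (-100.03 to 100). For the summary of probes, no method is stated in the sources used. Tests left out 64 control probe sets. Of all probe sets, 34958 had 1 gene symbol, 932 had several and 9211 are not listed in the annotation; 0 symbols changed through RefSeq. For the 18193 genes, the probe set of greatest mean score was used.

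The score of all genes was fitted by population in limma 3.58.1 (R 4.3.3), without a block and with a trend in eBayes, with Benjamini-Hochberg adjustment at 0.05. Experiments were compared with an F test with the population in the model. Both were tested on simulated scores. The members and lists were chosen with earlier results of these data known. Values on every array are given for genes called or with the 4 largest statistics and for up to 2 genes per role. Other values were chosen after they were seen.

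The labels put 1 SSC and 1 BCSP array in each experiment and give no number of animals. The study's text speaks of calluses of 4 different mice without tying a mouse to an array, so p-values measure the spread between these arrays. For the BCSP array of experiment 2, the title numbers it 3 and the description 2, and 2 was used. Within an experiment, the deviations of the SSC and the BCSP array from their populations' means had correlations over genes of 0.399, 0.177, 0.572 and 0.183, so the experiment pairs them, and an alternative had it as a block. Others were quantile normalization, array centring, a filter on low scores, other uses of probe sets and an arctanh scale. Further ones were no trend, an unpaired Student's t-test, array weights, and leaving out arrays or experiments. The experiment 3 count was repeated under 2 normalizations after seeing the data.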

Additional observations from a re-analysis of the deposited data

Results flagged for a closer look

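In 63 groups of 4 arrays with any spread, 1 array stood apart from the other 3 in 4 groups, where chance flags about 1 in 20 groups. All 4 were the SSC array of experiment 3, and each was low. Plod1 scored 74.99 there, against 97.5 to 98.7 on the other SSC arrays. P3h3 scored 94.77 (others 99.2 to 99.7), P3h4 scored 94.54 (others 99.4 to 99.85) and Crtap scored 98.59 (others 99.5 to 99.7). The groups share that array, so the 4 are not independent of each other.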

How the results depend on the processing

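Counts of 0 for SSCs against BCSPs stayed at 0 under all 22 alternatives, for all genes, for the 33 collagen genes and for the 57 genes of the other lists. With the replicate block the count was 0 in each, and the block changed no call. The methods' unpaired Student's t-test was run without their corrections for unequal variances or non-normal values. At the methods' threshold it gave 440 genes before adjustment, also fewer than chance alone would give, and 0 after it. The count of 28 genes active on every array ranged from 22, with the probe set of the lowest mean, to 29 with array centring. The median score of 97.8 was 126.9 with array centring, which moves the scale, 85.8 with the mean of probe sets and 80.9 with the lowest probe set. The 2 calls between experiments became 4 with only genes above 0 on at least 4 arrays, where fewer genes were tested. They became 0 with array centring, the mean of probe sets, the arctanh scale and no trend, and the cause was not tested. They were also 0 without any single array (0 to 0) and without experiment 1, 2, 3 or 4 (0 in each), where fewer arrays were used. The 11 genes lowest in experiment 3 were 5 with array centring and 14 with quantile normalization. The Tll1 difference of 8.68 points turned to -0.440 with array weights, -1.79 without the SSC array of experiment 1 (with 1 array left out it ran from -1.79 to 18.6) and -8.75 without experiment 1. No depth can be given for arrays, and scores near 100 or -100 limit what a difference can show.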
